A study of Homo sapiens with 2 samples.

Results

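MTA1 is a core subunit of NuRD, a complex that couples nucleosome remodelling to histone deacetylation and is known mainly as a transcriptional repressor. NuRD has no single DNA word of its own and is brought to chromatin by partner proteins and by features of the chromatin itself. RUNX2, a Runt-domain factor best known for its role in bone formation, binds DNA words of the type TGTGGT or TGCGGT. The regions described here are MTA1 peaks at which no RUNX2 peak was called nearby, referred to below as MTA1-alone peaks. They were chosen from the deposited peak lists by position and score: chromosomes 1 to 22 and X, a score of 8 or more in the MTA1 list, and no RUNX2 peak within 1 kb of either edge. By this rule 1569 of 42698 MTA1 peaks were MTA1-alone, out of 104415 peaks of both lists together.

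Both lists came from untreated MDA-MB-231, a widely used human cell line from a triple-negative breast tumour. The assay was CUT&Tag, which brings a transposase to antibody-marked chromatin and sequences the DNA it cuts out. The groups were 1 library made with an antibody against MTA1 and 1 made with an antibody against RUNX2, with no treatment or genetic change in either. No value below therefore has a replicate, no p-value is given, and 95% intervals cover counting error over peaks, genes or promoters only. Read depth is unknown, so a site missing from the RUNX2 list may have had no signal or one below the caller's threshold. Neither list held a peak within 3 kb of CDKN2A or CDKN2B, a pair of genes known to be deleted in this line. Coordinates are printed as deposited. The submitters' processing notes name hg19, but the positions matched GRCh38.

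Of the 19963 MTA1 peaks of score 8 or more, 17945 (89.9%) overlapped a RUNX2 peak by at least 1 bp and 449 (2.25%) had a RUNX2 peak within 1 kb without overlap. The MTA1-alone peaks were the remaining 7.86% (95% exact interval 7.49% to 8.24%). These counts follow from the rule and are given as a description. The lowest score inside the rule was 8.03, and the highest just outside it was 7.99 among peaks with no RUNX2 peak within 1 kb. The smallest distance to a RUNX2 peak inside the rule was 1002 bp and the largest outside it was 999 bp.

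The promoters under these peaks are shown first, because their sequence was not used by the rule. Promoter windows of protein-coding genes, 250 bases before and 50 after each start site, were taken from RefSeq (GRCh38.p14), and 309 MTA1-alone peaks touched at least 1 such window. The 250 bases before the start are printed for the MTA1-alone peaks of highest score and for those of highest score that hold each word, with the words in capitals on either strand. The words are the ETS-type word CCGGAAGT, the cAMP response element TGACGTCA, the YY1-type word AAGATGGC, the ZNF143-type word ACTACA, and the RUNX words TGTGGT and TGCGGT.
NOSIP: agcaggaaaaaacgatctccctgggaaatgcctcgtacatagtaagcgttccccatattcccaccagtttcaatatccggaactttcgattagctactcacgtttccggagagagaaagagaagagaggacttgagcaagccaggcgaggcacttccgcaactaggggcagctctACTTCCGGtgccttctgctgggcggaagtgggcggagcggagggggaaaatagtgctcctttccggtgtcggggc
NDUFA13: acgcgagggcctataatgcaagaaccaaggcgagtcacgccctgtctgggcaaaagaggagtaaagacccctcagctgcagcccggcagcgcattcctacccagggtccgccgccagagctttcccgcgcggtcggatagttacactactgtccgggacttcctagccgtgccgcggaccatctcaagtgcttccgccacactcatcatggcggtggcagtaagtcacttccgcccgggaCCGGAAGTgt
DDX10: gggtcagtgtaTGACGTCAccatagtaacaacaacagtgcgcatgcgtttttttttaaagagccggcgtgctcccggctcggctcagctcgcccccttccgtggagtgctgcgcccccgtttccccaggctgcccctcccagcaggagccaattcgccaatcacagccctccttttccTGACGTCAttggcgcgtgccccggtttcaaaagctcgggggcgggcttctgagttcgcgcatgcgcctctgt
CCDC77: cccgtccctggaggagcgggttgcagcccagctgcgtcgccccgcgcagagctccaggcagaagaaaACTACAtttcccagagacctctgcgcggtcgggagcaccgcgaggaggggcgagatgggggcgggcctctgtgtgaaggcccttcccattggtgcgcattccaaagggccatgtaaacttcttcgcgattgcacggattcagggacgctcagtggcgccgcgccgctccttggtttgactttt
LRRC3C: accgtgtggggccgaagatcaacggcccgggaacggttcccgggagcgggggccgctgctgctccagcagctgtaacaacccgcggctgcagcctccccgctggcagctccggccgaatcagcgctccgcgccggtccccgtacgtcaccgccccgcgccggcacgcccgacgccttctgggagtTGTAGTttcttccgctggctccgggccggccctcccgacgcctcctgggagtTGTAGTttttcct
RPS6KB2: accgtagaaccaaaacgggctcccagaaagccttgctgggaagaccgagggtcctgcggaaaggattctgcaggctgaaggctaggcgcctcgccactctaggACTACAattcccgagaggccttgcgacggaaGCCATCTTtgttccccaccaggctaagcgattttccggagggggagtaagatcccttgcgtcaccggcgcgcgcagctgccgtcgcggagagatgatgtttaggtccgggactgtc
MATR3: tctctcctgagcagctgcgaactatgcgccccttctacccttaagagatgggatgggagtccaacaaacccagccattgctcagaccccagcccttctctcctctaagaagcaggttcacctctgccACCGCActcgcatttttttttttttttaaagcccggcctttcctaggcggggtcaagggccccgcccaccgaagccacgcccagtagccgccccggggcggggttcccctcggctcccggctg
LRTOMT: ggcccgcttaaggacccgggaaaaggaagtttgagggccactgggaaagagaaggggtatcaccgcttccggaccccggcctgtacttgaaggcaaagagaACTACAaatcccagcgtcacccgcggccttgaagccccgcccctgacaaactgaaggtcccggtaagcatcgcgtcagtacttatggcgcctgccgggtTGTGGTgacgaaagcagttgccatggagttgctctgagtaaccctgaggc
FBXL19: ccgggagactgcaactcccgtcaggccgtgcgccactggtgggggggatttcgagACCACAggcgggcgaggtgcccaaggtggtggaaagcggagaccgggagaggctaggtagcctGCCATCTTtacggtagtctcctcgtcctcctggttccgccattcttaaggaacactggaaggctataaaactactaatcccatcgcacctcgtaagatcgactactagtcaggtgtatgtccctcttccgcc

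The NOSIP window (chr19:49580557-49580806, minus strand), upstream of a ubiquitin ligase that binds nitric oxide synthase, lay under the MTA1-alone peak of highest score, 57.7, and held the ETS-type word 75 bases before the start. The window of NDUFA13, a subunit of respiratory complex I, was at chr19:19515975-19516224 on the plus strand under a peak of score 44.8, with the ETS-type word 10 bases before the start. DDX10, which encodes a DEAD-box RNA helicase, had its window at chr11:108664819-108665068 (plus strand, peak score 31.9) with the cAMP response element at both 239 and 72 bases before the start. In the CCDC77 window (chr12:401394-401643, plus strand, score 30.02) the ZNF143-type word began 183 bases before the start. The LRRC3C window (chr17:39927482-39927731, plus strand, score 28.8), whose peak is shared with the neighbouring ORMDL3, a regulator of sphingolipid synthesis, held that word on the other strand 65 and 13 bases before the start. That peak lay 1319 bp from a RUNX2 peak.

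None of these 5 highest-scoring windows held a RUNX word in the printed bases. RPS6KB2, the gene of an S6 kinase, was the highest-scoring MTA1-alone window with the YY1-type word (chr11:67428244-67428493, plus strand, score 21.3). That window also held the ZNF143-type word, and its peak lay 1006 bp from a RUNX2 peak. MATR3, which encodes the nuclear RNA-binding protein matrin 3, was the highest-scoring MTA1-alone window with a RUNX word before the start, at chr5:139273851-139274100 (plus strand, score 16.6). That word, on the other strand, began 123 bases before the start and lay outside the peak (139274008 to 139274225). The MATR3 peak was 1092 bp from a RUNX2 peak. LRTOMT (chr11:72080600-72080849, plus strand, score 74.8) and FBXL19 (chr16:30922805-30923054, plus strand, score 67.6) are printed for contrast. They were the highest-scoring windows with a RUNX word under an MTA1 peak that overlapped a RUNX2 peak.

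RUNX words were less frequent in the promoters of MTA1-alone peaks. Of the 309 windows, 33 (10.7%, 7.47% to 14.7%) held TGTGGT or TGCGGT on either strand. For comparison, the 4979 windows under overlapping MTA1 peaks were weighted so that their scores were spread like those of the MTA1-alone peaks. Below, overlapping peaks and windows are weighted in this way unless stated. Counts of genes are not weighted, nor are peaks near RUNX2 without overlap. At like score 20.7% of the overlapping windows held a RUNX word, a difference of -10.03 percentage points (95% interval -13.5 to -5.70). Of all 22132 protein-coding windows, 18.97% did. The share was low for each word: 5.18% against 9.63% for TGTGGT, and 5.50% against 12.2% for TGCGGT. Within the part of a peak covered by its window, a RUNX word was found at 5.50% of these 309 MTA1-alone peaks. The share was 15.1% for the 4979 overlapping peaks, which were wider. Over whole windows, the same letters read backwards, TGGTGT or TGGCGT, were found in 19.1% and 19.3%, a difference of -0.254 points (-4.61 to 4.81).

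The RUNX word difference was negative in each range of base composition, though in the middle one its interval held 0. GC content was lower under MTA1-alone peaks, with a median of 62.7% (61.3% to 63.3%) against 66.3% at like score. With overlapping windows weighted to GC content in place of score, the difference in RUNX words was -9.74 points. It was -8.78 points (-14.4 to -1.56) in the tercile of windows with the lowest GC content and -15.7 points (-19.7 to -8.23) in the tercile with the highest. In the middle tercile it was -9.12 points, with an interval of -15.7 to 0.371. Windows of the 114 peaks with a RUNX2 peak within 1 kb but no overlap held a RUNX word in 14.04% (16 windows, 8.24% to 21.8%), between the other sets and with an interval that reaches both. Their median GC content was 63.3%, close to that of MTA1-alone windows.

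**Figure D1:**
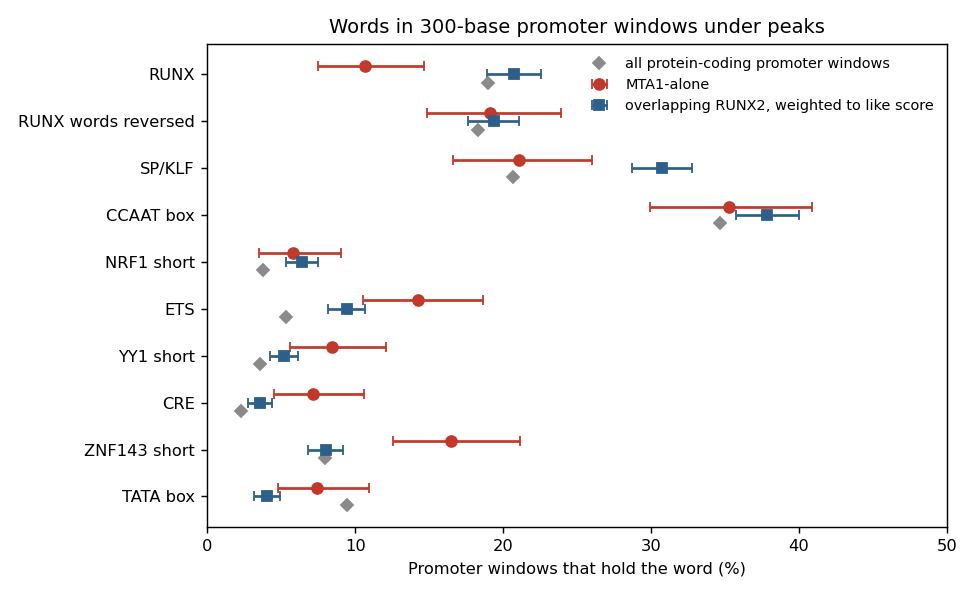
Share of 300-base promoter windows (x axis, %) that hold each word (y axis) under MTA1-alone peaks (circles, 309 windows) and under MTA1 peaks that overlap a RUNX2 peak, weighted to like score (squares, 4979 windows), with 95% intervals, and among all 22132 protein-coding windows (diamonds). RUNX words stand at 10.7% against 20.7%, while the same letters reversed stand at 19.1% against 19.3%.

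Other promoter words differed in both directions. In all, 31 words or word sets were searched on both strands. The interval of the difference from overlapping windows lay below 0 for 3, above 0 for 9 and held 0 for 19. The 3 lower ones were the RUNX words, the SP/KLF-type word GGGGCGGGG (21.0% against 30.7%) and the NF-kB-type word (27.2% against 34.7%). With weighting to GC content in place of score, the overlapping windows held the SP/KLF-type word in 25.1% and the NF-kB-type word in 28.7%, and the differences were -4.11 and -1.50 points, in place of -9.68 and -7.49. In windows of the 114 peaks near RUNX2 without overlap, the shares were 23.7% and 26.3%, unweighted. SP and KLF proteins bind GC boxes of many housekeeping promoters. The CCAAT box word CCAAT, among the 19, was in 35.3% against 37.9% at like score, a difference of -2.58 points (-8.12 to 3.30). Overlapping windows held CCAAT in 45.5% unweighted and in 47.9% with weighting to GC content. The difference with GC weighting was -12.6 points, larger in size than that of the RUNX words (-9.74). In windows of the 114 peaks near RUNX2 without overlap its share was 24.6%, unweighted.

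Words higher under MTA1-alone peaks were led by ACTACA, in 16.5% (12.5% to 21.1%) against 7.99%, with 7.94% over all protein-coding windows. The ETS-type word was found in 14.2% against 9.42%, with 5.35% over all windows. The cAMP response element was found in 7.12% against 3.56%, and AAGATGGC in 8.41% against 5.19%. ETS, CREB, YY1 and ZNF143 proteins are known for binding near start sites of widely expressed genes. Any of these 4 words was present in 40.8% of MTA1-alone windows (35.2% to 46.5%), against 23.4% at like score and 17.5% of all windows. These 4 words were grouped after their values had been seen. The group leaves out other higher words. The GATA-type word AGATAA was found in 6.47% against 2.99%, with 7.88% over all windows. The TATA box word TATAAA was found in 7.44% against 4.02%, with 9.46% over all windows. The differences for the 4 grouped words depended on the weighting. With no weighting they were 5.14 points for ACTACA, 3.17 for the ETS-type word, 2.19 for AAGATGGC and 2.86 for the cAMP response element. With weighting to GC content in place of score they were 3.59, 2.55, 1.62 and 2.75 points in the same order. In windows of the 114 peaks near RUNX2 without overlap, the shares of these words were 12.3%, 13.2%, 8.77% and 7.02% in that order, unweighted.

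Some words of the search share letters: CGGAAG lies within the ETS-type word, and TGACGT within the cAMP response element. GCCATCTTG holds AAGATGGC on the other strand. A match is a description of letters and not a bound site. Promoter windows were used for chromosomes 1 to 7, 9 to 22 and X. The sequence of peaks away from promoters was not analysed here.

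MTA1-alone peaks became rarer as the MTA1 score rose, and they were narrower than overlapping peaks at every score. They made up 19.1% (17.6% to 20.7%) of MTA1 peaks with scores of 8 to 9, and 0.298% (0.109% to 0.647%) of those at 30 or more. As a result 874 of the 1569 had a score under 10, 59 reached 20 and 6 reached 30. The median score was 9.72, with quartiles of 8.76 and 11.8. Their median width was 196 bp (192 to 200), against 225 bp in overlapping peaks of like score, and 273 bp unweighted. At scores of 20 to 25 the medians were 244 bp (224 to 264) and 318 bp, and at 30 or more, where the gap was widest, 292.5 bp (6 peaks) and 402 bp. Of the MTA1-alone peaks 52.3% were narrower than 200 bp, against 37.1% at like score, a difference of 15.2 points (12.5 to 17.8). The order was the same at gene ends (206 against 240 bp), in gene bodies (189 against 217 bp) and between genes (192 against 219 bp). Narrowness was not particular to MTA1-alone peaks. The 449 peaks with a RUNX2 peak within 1 kb but no overlap had a median width of 182 bp, at a median score of 9.74. Of these, 58.8% were narrower than 200 bp. A wider peak can meet a RUNX2 peak more easily under a rule of 1 bp, and the part of this in the width difference was not tested.

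**Figure D2:**
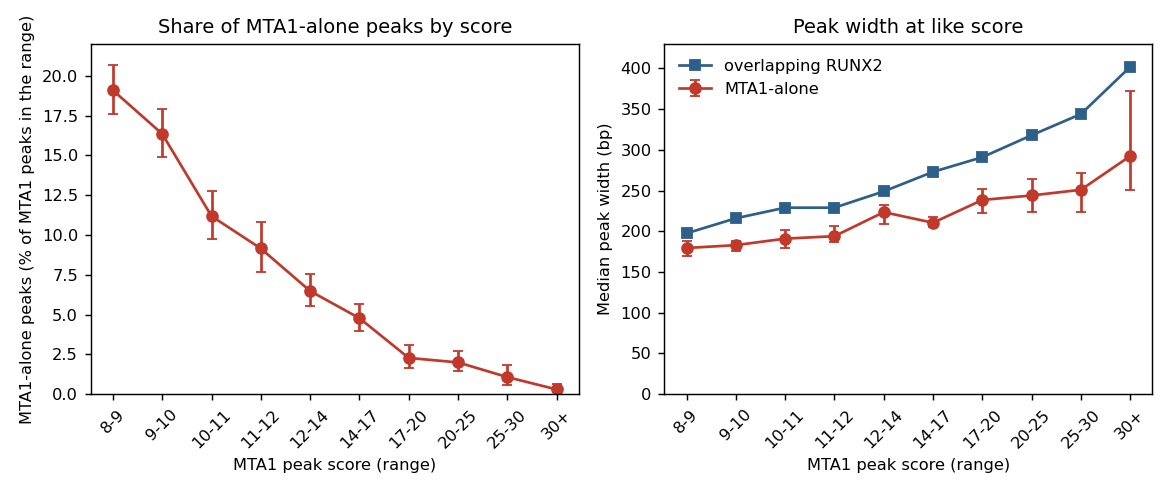
Left, share of MTA1 peaks that are MTA1-alone (%) in each range of MTA1 score, with exact 95% intervals. Right, median width (bp) of MTA1-alone peaks (circles, with 95% intervals) and of peaks overlapping RUNX2 (squares) in the same ranges. The share goes from 19.1% to 0.298%, and MTA1-alone peaks are narrower in each range.

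By broad location, MTA1-alone peaks lay much where overlapping peaks of like score lay. A gene-end peak is one whose centre fell no more than 3 kb from where an annotated gene starts or stops. Gene ends held 650 of the 1569 peaks (41.4%, 39.0% to 43.9%), gene bodies 611 (38.9%) and intergenic sequence 308 (19.6%). Overlapping peaks of like score were at gene ends in 44.2%, in gene bodies in 37.8% and intergenic in 17.98%. The gene-end difference of -2.81 points (-5.42 to -0.162) depended on the rule, since it was 1.39 points when any peak without overlap was counted as MTA1-alone. Unweighted, overlapping peaks were at gene ends in 51.2%, so most of that gap went with their higher scores. The 449 peaks with a RUNX2 peak within 1 kb were at gene ends in 59.9%.

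At start sites, MTA1-alone peaks were more often centred within 100 bp than overlapping peaks of like score. Starts were listed for 15812 of the 19974 protein-coding genes, so a peak at an unlisted start counts as distal in both sets. Of the 1500 on chromosomes with start sites, 244 (16.3%, 14.4% to 18.2%) had their centre within 100 bp of a protein-coding start, against 12.4% at like score. The difference was 3.86 points (1.958 to 5.92). Within 250 bp it was only 0.780 points (-1.33 to 3.03), and within 1 kb -2.08 points (-4.28 to 0.262). Closeness to starts was not particular to MTA1-alone peaks. Of the 437 peaks with a RUNX2 peak within 1 kb but no overlap, 21.1% were centred within 100 bp, unweighted. Of the 1500, 30 (2.0%) lay more than 250 bp and up to 1 kb from a start, against 4.86%, a difference of -2.86 points (-3.60 to -1.90). The rule leaves out peaks with a RUNX2 peak within 1 kb but no overlap. On the same chromosomes, 13.04% of those 437 peaks lay at this distance from a start. The part of their removal in the difference was not tested. Over the 309 peaks that touched a promoter window the median centre was 42 bp upstream of the start (interval 52 to 32 bp upstream), and 79.0% were within 100 bp. For overlapping peaks of like score the median was 66 bp upstream and 61.4% were within 100 bp. For the 114 with a RUNX2 peak within 1 kb but no overlap, these values were 44 bp and 80.7%. Any touch of a window counted, so wider peaks could have centres farther out. Overlapping peaks were wider here (median 274 against 224 bp), and the part of this in the offset was not tested. At the other extreme, 346 MTA1-alone peaks (23.1%) were farther than 100 kb from any listed start, against 19.3%, a difference of 3.75 points (1.53 to 6.10). Start sites on both strands within 1 kb, the layout of divergent promoters, were found at 26.9% of MTA1-alone and 28.6% of overlapping peaks near a start, a difference whose interval ran from -6.47 to 3.70 points.

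**Figure D3:**
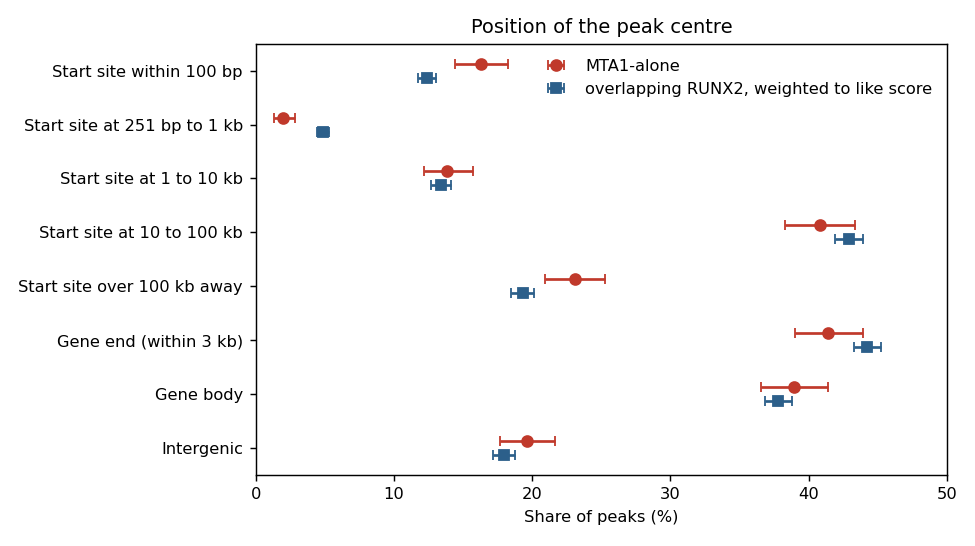
Share of peaks (x axis, %) by the position of the peak centre relative to listed protein-coding starts and to genes (y axis) for MTA1-alone peaks (circles) and overlapping peaks weighted to like score (squares), with 95% intervals. Start-site classes rest on 1500 MTA1-alone peaks and gene classes on 1569. MTA1-alone peaks are higher within 100 bp of a start (16.3% against 12.4%) and beyond 100 kb (23.1% against 19.3%).

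Of the 15 MTA1-alone peaks of highest score, 11 were at gene ends, 2 in gene bodies and 2 intergenic, and 6 were centred within 250 bp of a listed protein-coding start. The peak of score 57.7 (chromosome 19, 49580482 to 49580787) lay between NOSIP and PRRG2, which encodes a membrane protein with a Gla domain, 9.35 kb from the nearest RUNX2 peak. The NDUFA13 peak (19516026 to 19516397) was 36.5 kb from one. YKT6, the gene of a SNARE protein of vesicle fusion, had a peak of score 28.5 (chromosome 7, 44200818 to 44201068), and RRP12, needed for ribosome maturation, one at a gene end, of score 27.2 (chromosome 10, 97401213 to 97401526). A peak of score 28.2 (chromosome 6, 30614916 to 30615178) lay inside PPP1R10, which encodes a regulatory subunit of protein phosphatase 1, and near an end of MRPS18B, which encodes a mitochondrial ribosomal protein.

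Chromosome 18 carried 3 of the 10 highest scores. These were near LINC01909 (70333818 to 70334073, score 41.9), inside DSG2, which encodes a desmosomal cadherin (31512503 to 31512753, score 33.1), and 80542 bp from DSEL (67425790 to 67426045, score 28.2), with no RUNX2 peak within 90 kb of the last. BSN, which encodes a presynaptic scaffold protein, and CUBN, which encodes the endocytic receptor cubilin, held the next-highest gene-body peaks, with scores of 27.5 and 26.8. The other intergenic peaks among the 3 of highest score were nearest to PHLDB3 (score 27.1) and to the lncRNA gene LOC124902291 (score 26.6). CCDC77, LRRC3C, LOC100996756 (score 29.2) and FLRT2 (score 27.2), which encodes an adhesion protein, were also among the 15 highest. By contrast, the 3 highest overlapping peaks, whose nearest genes were the lncRNA gene LOC124901572, VCPIP1 and RAB30, scored 98.7, 96.2 and 95.4.

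The widest MTA1-alone peak, 772 bp at LOC124902551 on chromosome 10, had a score of only 9.10. The next were 645 bp at DCTN6, a dynactin subunit gene, and 603 bp at C2CD5, a regulator of glucose transporter traffic, with scores of 9.79 and 12.3. All 3 lay at gene ends.

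In naming the nearest gene, a protein-coding gene that overlapped a peak or lay within 3 kb came before any nearer gene of another kind. This order can only raise the protein-coding share. By it the nearest gene was protein-coding for 1160 MTA1-alone peaks (73.9%), a lncRNA gene for 278 (17.7%) and a pseudogene for 94 (5.99%). They were spread over 1460 nearest genes, of which 101 had more than 1. A tRNA gene lay within 1 kb of 6 peaks (0.382%), against 0.512% at like score. Of 19974 protein-coding genes, 619 had an MTA1-alone peak within 3 kb of an end, a background of 3.10%. Among the 8559 genes with any MTA1 peak of score 8 or more at an end this background was 7.23%. Overlapping peaks reached 39.9% of all genes, and 467 of the 619 genes had no overlapping peak at their ends.

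Among lists of 30 genes or more, proteasome and respiratory chain genes had the highest shares. Proteasome subunits, which form the protease that degrades ubiquitin-tagged proteins, had an MTA1-alone peak at 6 of 39 genes (15.4%, 5.86% to 30.5%), or 17.1% (6.56% to 33.6%) of those with any MTA1 peak of score 8 or more at an end. These were PSMD1 (score 14.6), PSMD13 (13.6), PSMC2 (9.67), PSMB10 (9.55), PSMB4 (9.06) and PSMB11 (8.49). The peak at PSMC2 also lies at DNAJC2, and that at PSMD13 is nearer to SIRT3, so a peak can count for a pair of genes. Genes of respiratory complexes I and IV had such peaks at 8 of 71 (11.3%, 4.99% to 21.0%). These were NDUFA13 (44.8), NDUFA1 (10.7), NDUFAF1 (10.7), NDUFB6 (10.7), NDUFB4 (10.1), NDUFB2 (9.32), COX16 (8.69) and NDUFB9. The peak at NDUFA1 also lies at RNF113A. Among genes of these complexes with any MTA1 peak of that score at an end, the share was 16.7% (7.48% to 30.2%). Against the background of 7.23% for such genes, the lower bound lay below it for the proteasome. For the respiratory chain the bound lay only just above it, at 7.48% from 8 of 48 genes.

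Zinc finger genes of the ZNF series, most of which encode DNA-binding proteins, had an MTA1-alone peak at 35 of 509 genes (6.88%, 4.84% to 9.43%), and at 12.5% (8.90% to 17.01%) of the 279 with any MTA1 peak of score 8 or more at an end. ZNF268 (chromosome 12, score 21.1), ZNF593 (chromosome 1, score 18.1) and ZNF45 (chromosome 19, score 17.8) had the highest scores. On chromosome 19, where many of these genes lie in clusters, the share was 8.54% (21 of 246, 5.36% to 12.8%), against 3.65% (2.67% to 4.87%) of the other 1205 protein-coding genes there. Elsewhere it was 5.32% (14 of 263, 2.94% to 8.77%). Overlapping peaks were at nearly the same share of ZNF genes (47.2%) and other genes (48.7%) of chromosome 19. Neighbouring ZNF genes can share a peak, so genes of a cluster are not independent.

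Mitochondrial ribosomal protein genes had an MTA1-alone peak at 6 of 77 (7.79%), cytosolic ribosomal protein genes at 5 of 85 (5.88%) and splicing factor genes at 5 of 85 (5.88%). Genes listed as initiation factors (2 of 55), chaperones (3 of 77), DNA replication genes (1 of 38), TMEM genes (5 of 232) and genes of ATP synthase and complex III (1 of 28) were near or below the background. The intervals of all these lists held 3.10%. The 2 listed as initiation factors were EIF6 and EIF2AK2, and the latter encodes a kinase rather than an initiation factor. No subunit gene of NuRD itself had one (0 of 15, upper bound 21.8%), although 11 had an overlapping peak of score 8 or more. Of the CUL4 ubiquitin ligase genes only CRBN, whose product binds thalidomide, had one (1 of 21, score 8.25). Among AP-1 genes, which encode stress- and growth-induced factors, ATF3 (score 17.1) and FOSB (score 10.98) did, 2 of 12. RUNX family and cofactor genes had 0 of 10.

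There was no MTA1-alone peak at 390 olfactory receptor, 88 cadherin and protocadherin, 55 keratin, 44 collagen or 30 integrin genes. For all of these but the olfactory receptors the interval held the background of 3.10%. For olfactory receptors the upper bound was 0.941%, for cadherins and protocadherins 4.11%, for keratins 6.49%, for collagens 8.04% and for integrins 11.6%. Against 39.9% of all protein-coding genes, overlapping peaks were found at 1 olfactory receptor gene, 4 cadherin and protocadherin, 4 keratin, 5 collagen and 8 integrin genes (26.7% of integrins). Potassium channels had 1 of 96, KCNQ5, and HOX genes 1 of 39, HOXD1 (score 8.25). The 69 replication-dependent histone genes had none (upper bound 5.21%), while 23 of them (33.3%) had an overlapping peak.

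**Figure D4:**
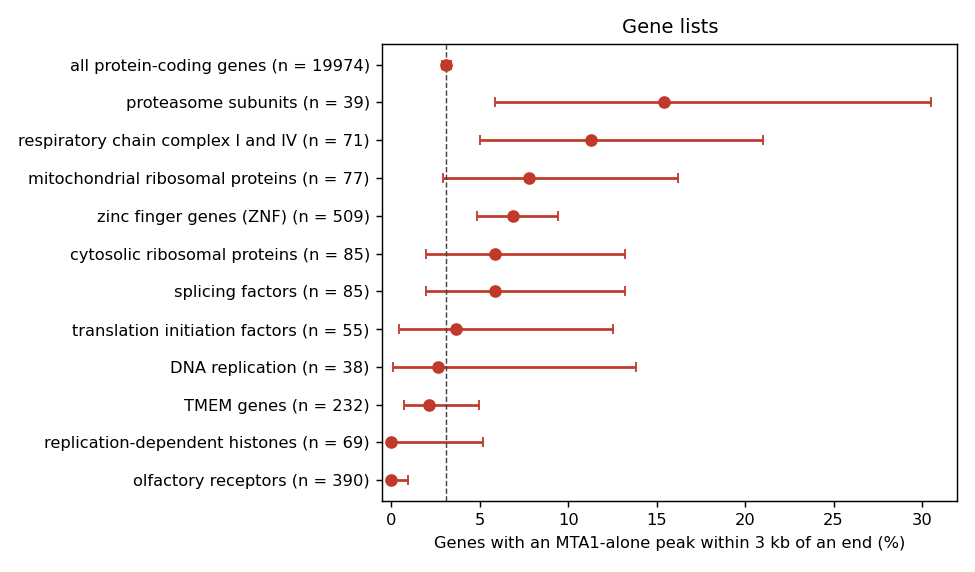
Share of the genes of each list (x axis, %) with an MTA1-alone peak within 3 kb of an end, with exact 95% intervals and the number of genes in brackets. The dashed line is the background of 3.10% over all protein-coding genes. Of the lists drawn, proteasome (15.4%), respiratory chain (11.3%) and ZNF genes (6.88%) lie above it with intervals that do not reach it.

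MTA1-alone peaks were unevenly spread over chromosomes. They made up 12.01% of MTA1 peaks of score 8 or more on chromosome 13 (9.02% to 15.6%), 11.6% on chromosome 4 (9.34% to 14.3%) and 11.2% on chromosome X (8.25% to 14.7%), and 5.91% on chromosome 21 and 6.03% on chromosome 15. Set against the number expected from the scores of the peaks, chromosomes 4, 13 and X together held 173 where 131 were expected, a ratio of 1.32. The ratio on chromosome X alone was 1.27, with an interval of 0.938 to 1.67 that holds 1. The other 20 chromosomes ranged from 0.686 to 1.25, the highest being chromosome 7 with an interval of 1.02 to 1.52 above 1. Chromosomes 4, 13 and X were grouped after the values were seen. Gene ends held 25 of the 80 MTA1-alone peaks on chromosome 4 and 12 of the 49 on chromosome 13, but 19 of the 44 on chromosome X, against 42.6% on the other 20 chromosomes. RUNX2 peaks per MTA1 peak ranged from 1.33 to 1.44 on the 3 chromosomes and from 1.28 to 1.57 on the others, and the part of this in the ratio was not tested. Chromosome 19, with the lowest RUNX2 number per MTA1 peak (1.28), had a ratio of 1.18 (0.954 to 1.43).

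**Figure D5:**
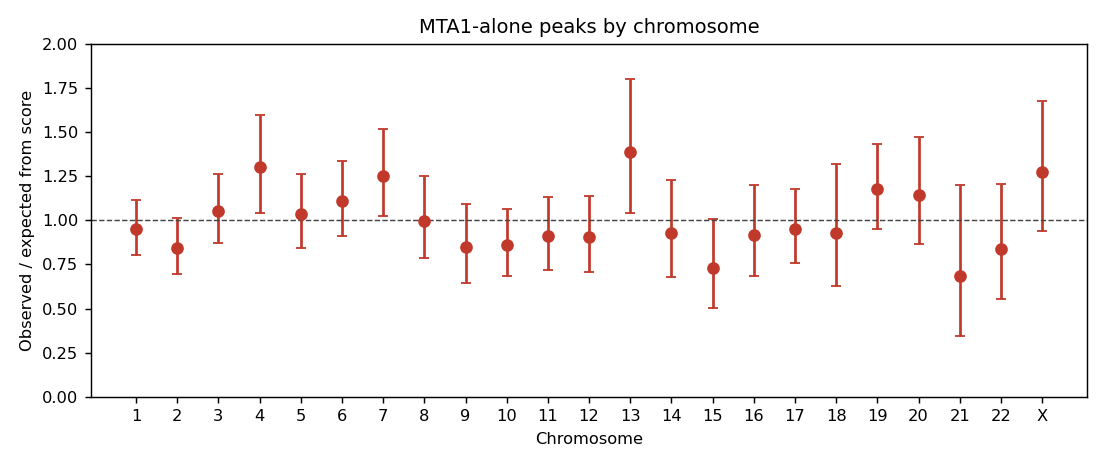
Number of MTA1-alone peaks divided by the number expected from the scores of all MTA1 peaks of score 8 or more (y axis) on each of 23 chromosomes (x axis), with exact 95% binomial intervals; the dashed line marks 1. Chromosome 13 is highest at 1.39 and chromosome 21 lowest at 0.686.

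All but 93 MTA1-alone peaks had a RUNX2 peak within 100 kb. The median distance to the nearest RUNX2 peak was 11.2 kb, with quartiles of 4.33 and 29.5 kb. Distances from arbitrary positions were not computed, so these values have no background. Within 100 kb, leaving out the nearest 1 kb, MTA1-alone peaks had a median of 6 RUNX2 peaks, against 8 around overlapping peaks of like score. They had 4 other MTA1 peaks against 6. The peaks closest to a RUNX2 peak were most often at gene ends: 53.9% (45.7% to 61.9%) of the 154 at 1 to 2 kb, against 28.0% (19.1% to 38.2%) of the 93 beyond 100 kb. Of those 93, 34.4% (24.9% to 44.98%) were intergenic, against 16.9% of the 154. Median scores differed little with distance, between 9.55 and 9.96. The 3 farthest lay on chromosomes X and 13, at 1087, 601 and 537 kb from a RUNX2 peak, with scores of 8.03, 14.5 and 9.55. Their nearest genes were LOC107985713, RNU6-1323P and PTMAP5.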

How the data were processed

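The authors deposited 1 peak list per library, with a score for each peak; the scale of the score is not given in the sources used here. The submitters' processing notes name CASAVA 1.4, Bowtie 0.12.8, MACS and MACS2 and the build hg19. However, 122 MTA1 peaks lay past the end of chromosome 17 in hg19 and 75 past that of chromosome 20. Protein-coding gene ends of GRCh38 had 24.6% of all MTA1 peaks at 1 kb or less, against 4.57% after a move of 100 kb, so GRCh38 was used. The labels and the study's methods name different antibody suppliers, and the labels describe end repair and adaptor ligation. Peaks were called in each library separately, and the caller's threshold and any control are not given in the sources used here.

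Positions are 1-based. Genes (59098) and promoter windows came from RefSeq GRCh38.p14. Overlapping peaks were weighted to the MTA1-alone peaks over 10 score ranges. Intervals of shares are exact (Clopper-Pearson), those of weighted shares normal, and those of differences Newcombe's, all at 95%. Intervals of medians come from order statistics. Distances were tested on real and simulated peaks, weighting on simulated data and the word search on a few short strings. Planned for naming were the 15 highest-scoring peaks, the 3 highest per location, the 3 widest and the 3 farthest from RUNX2. The 2 highest per gene list were also planned, but more are named for the proteasome, respiratory chain and ZNF lists. For some other lists fewer are named. Members, lists and words were chosen with earlier results of these data known. Alternatives changed the distance, score minimum, gene-end window, gene set, weighting and chromosomes. The software was scipy 1.17.1, pandas 2.3.3 and numpy 2.4.6 under Python 3.11.15, with figures from matplotlib 3.10.9.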

Additional observations from a re-analysis of the deposited data

How the results depend on the processing

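The number of MTA1-alone peaks was 3565 with a score of 6 or more, 373 with a score of 12 or more, and 3930 when only RUNX2 peaks at or above their median score counted, all by construction. The gene-end difference became 1.39 points, and so turned direction, when any peak without overlap counted as MTA1-alone, and -9.75 points unweighted; the first adds the peaks near RUNX2. Leaving out each chromosome gave -3.41 to -2.38 points. The width difference was -50 bp with a score of 12 or more and -77 bp unweighted, and negative in every alternative run. With a score of 12 or more 199 protein-coding genes had an MTA1-alone peak at an end, in place of 619, among them 12 in place of 35 ZNF genes and 2 in place of 6 proteasome genes, as fewer peaks must give. The RUNX word difference was between -9.89 and -8.92 points in 6 alternatives added after seeing the data. For the ZNF and proteasome lists and chosen words, which left out TGACGT and CCAAT, 54 values were computed under alternatives. Of these, 48 stayed within the main interval or within 1.5-fold, 6 did not, and none changed direction. Those 6 were the ZNF and proteasome counts above, SP/KLF, NF-kB and ACTACA words weighted to GC content, and ACTACA at a score of 12 or more (20.8 points in place of 8.51). The search for words in peaks away from promoters was not run for want of their sequence. No paired analysis was possible because there is 1 library per antibody. Just below the score minimum, 27.3% of MTA1 peaks with scores of 7 to 8 had no RUNX2 peak within 1 kb; read depth is unknown, and its part in this share was not tested.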

Other observations

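Few MTA1-alone peaks had another within 10 kb. With peaks up to 10 kb apart joined into 1 site, the 1569 peaks fell into 1539 sites, of which 29 held more than 1. The largest held 3, on chromosome 20 from 363336 to 382037, between NRSN2 and TRIB3, the gene of a stress-induced pseudokinase. Their scores were 8.38, 16.5 and 13.2. KCNQ5, the gene of a voltage-gated potassium channel, was nearest to 4 MTA1-alone peaks, the most of any gene, with scores from 8.27 to 10.1. A pair of peaks lay close together at SIRT3, the gene of a mitochondrial deacetylase, with scores of 13.6 and 8.99. These sites were chosen after their values were seen.

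Mitochondrial DNA, which the rule leaves out, held 12 MTA1 peaks of score 8 or more, and 0 of them lacked a RUNX2 peak within 1 kb.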
